A study of Rattus norvegicus with 40 samples.

Results

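The comparison described here is that of hippocampal slices of young rats given intermittent theta burst stimulation (iTBS) with sham slices of the same animals, and it rests on 8 of the 40 arrays of the series. The members were taken from the sample titles: the primary arrays of iTBS rats 1 to 4 and of sham rats 1 to 4, without repeat hybridizations, paired by the animal number. All 4 animals were male Long-Evans rats of 5 to 6 months. The hippocampi were cut into slabs 1 mm thick and serial slabs of 1 brain were spread over 3 dishes, so that each rat gave sham, iTBS and 1 Hz slices. In iTBS, magnetic pulses come in short bursts at theta rhythm with pauses between trains. The iTBS dish lay 1 cm under the coil and the sham dish 20 cm from it, so dish and treatment cannot be told apart within a rat. The sample characteristics give 1 h between stimulation and RNA collection, whereas the treatment protocol and the paper's methods give 2 h. Each array holds the pooled slices of 1 dish. Where aged rats are named for comparison, AU rats were unimpaired and AI rats impaired in the water maze. They were 25 to 26 months old by the sample characteristics, and their slices were treated in the same way.

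Slices of adult hippocampus keep the pyramidal cells, granule cells, interneurons, glia and vessels of the tissue, but no circulating blood and none of the long-range inputs. Cutting activates microglia, astrocytes and cells of the meninges that stay on the surface. In neurons, firing and calcium entry switch on immediate early genes, among them members of the Fos and Jun families, whose proteins pair as the transcription factor AP-1. Injury, cytokines and growth factors induce several of the same genes, and the factor NF-kB drives another set that includes cytokines, chemokines and their feedback inhibitors. In bulk slices, fewer cells of a type and less RNA per cell cannot be told apart.

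Levels are log2 signals centred on the mean of all features of an array, divided by their SD and multiplied by 4.158. On an array whose SD is 4.158, a difference of 1 unit is a doubling of signal. The SDs of the 8 arrays ran from 3.418 to 4.531, and 1 unit is less than a doubling where the SD is lower. In rat 2 the SD was 3.835 for sham and 3.418 for iTBS, so the changes of that rat also hold a difference in scale. A change is the iTBS level minus the sham level of the same rat. The fitted change and its standard error (SE) come from limma with the rat as a block, and p-values are two-sided. The SE and p rest on the spread over all primary arrays in the fit, aged ones included, and not on the young pairs alone. A gene is represented by its brightest probe, and 13182 genes lay well enough above background to be tested. The share of features well above background ran from 77.1% to 88.7% on the sham arrays and from 75.2% to 92.4% on the iTBS arrays. Each young rat lay on a slide of its own, so the rat and the slide cannot be told apart, and both drop out of the paired changes. The labelled tissue was checked against its markers. The mean level of 14 neuronal genes lay between 4.24 and 4.76 on the 8 arrays, that of 13 astrocyte genes between 5.02 and 5.69, and that of 22 oligodendrocyte genes between 3.82 and 4.76. The list of T cell, B cell and cytotoxic genes had mean levels from -2.16 to -0.70, and Cd8a and Cd2 among them were well above background on 2 of 8 arrays each.

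The sham array of rat 2 stood apart from the other 11 young primary arrays. The counts over all genes, the values of part of the lists and the fitted changes of several main genes are given with and without that rat. Where a list or gene is given with all rats only, its values include rat 2. On this array 105 probes lay more than 3 units above the mean of the other young arrays, where the other 11 arrays had 0 to 19 such probes. Other arrays stood apart on the low side: 192 probes on the iTBS array of rat 4 and 132 on that of rat 3 lay more than 3 units below, against 5 on the sham array of rat 2. The iTBS array of rat 2 had the lowest median correlation with the other 11 young arrays, at 0.9583, next to 0.9604 for the sham array of that rat. The genes highest on the sham array of rat 2 were MHC class II genes, which present antigen, and the B cell chemokine Cxcl13. RT1-Da was at 7.20 on this array and between -4.81 and -1.39 on the other 7 sham and iTBS arrays. Cd74, the invariant chain of MHC class II, was at 9.24 there and between -1.12 and 1.19 on the other 7. The 7 MHC class II genes tested had a mean level of 5.49, against -0.84 to 0.23 on the other 7 arrays of the comparison, -0.15 to 1.56 on the 12 AU arrays and 0.53 to 5.82 on the 12 AI arrays. The 16 complement genes had a mean level of 3.76 there, against 0.50 to 1.41 on the other 7. Homeostatic microglia genes were at 4.50, against 3.13 to 3.59, while neurons and astrocytes lay within the range of the other arrays. The 5 genes lowest on this array against the other young arrays were Abca17, Htr7, Mrln, Ror2 and Slc6a5, with levels from -6.98 to -5.39. Such levels are near background: Abca17, Htr7 and Mrln were too dim to be tested. Slc6a5 was well above background on 1 of 4 sham arrays and Ror2 on 3 of 4. The share of tested probes whose change was greatest in size, which depends on the sham and the iTBS array of a rat, was 47.0% in rat 2, against 22.9%, 13% and 17.2% in rats 1, 3 and 4.

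**Figure D1:**
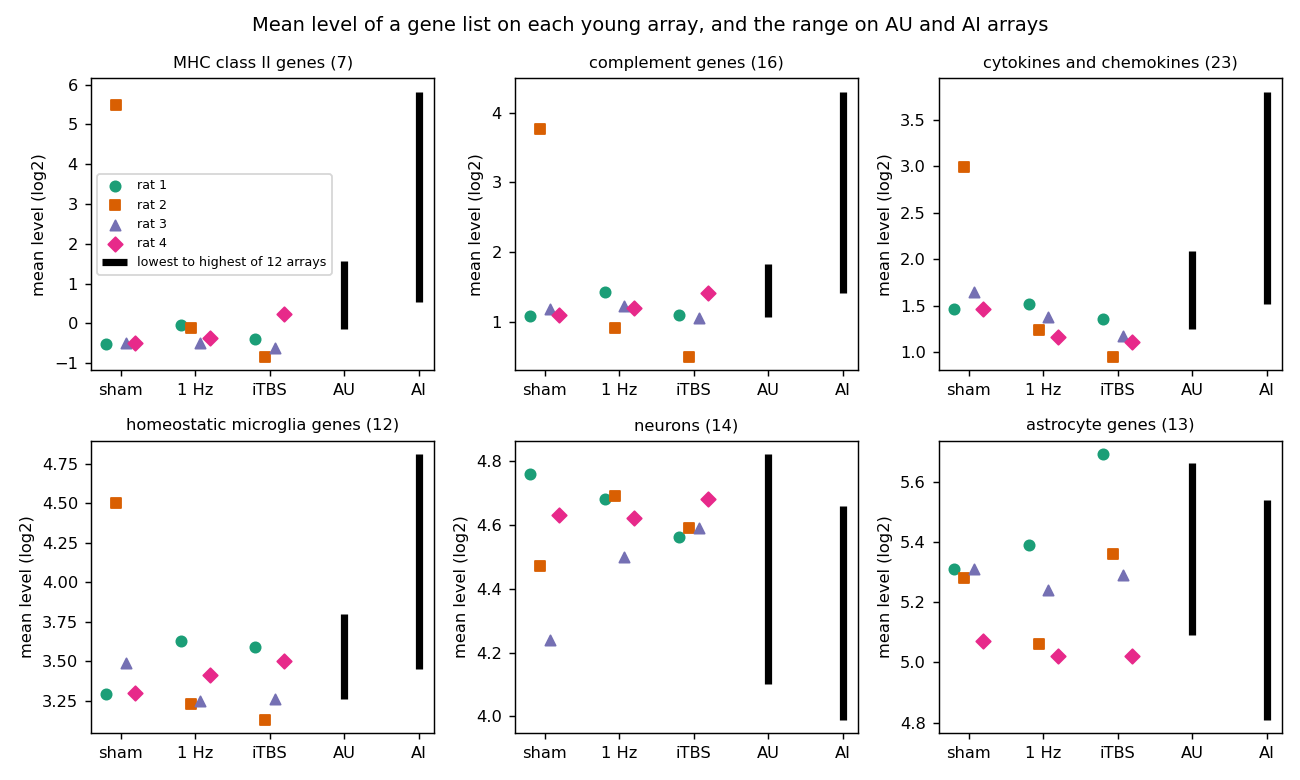
Mean level (log2, mean of all features of an array = 0) of 6 gene lists on each young array, by treatment and rat, with the range over the 12 AU and the 12 AI arrays as black bars. The number of genes tested stands in each title. The sham array of rat 2 lies at 5.49 for MHC class II genes and 3.76 for complement genes, above every other young array, and within the range of the others for neurons and astrocytes.

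With the 4 pairs, 0 of 32562 probes and 0 of 13182 genes passed an adjusted p of 0.05 in limma (0.0% called), and 1922 probes (5.9%) had an unadjusted p under 0.05. That number was 1090 without rat 2 and 3832 without rat 3. Among genes, 254 (1.93%) were higher and 575 (4.36%) lower after iTBS at an unadjusted p under 0.05, together 6.29%. The direction of this split depended on the scaling: 30.6% of the genes under 0.05 were higher with the z-score scaling, 78.8% with scaling to the 75th percentile and 51.7% with quantile normalization. The median change of all genes was -0.03 with z-scores and 0.10 with the 75th percentile, a shift of 0.129, and 0.02 with quantiles. Values below are changes on the z-score scale, and directions that another scaling turned are named. Without rat 2, 0 probes passed again (0.0%), the smallest adjusted p was 0.0776 for a probe with no gene symbol, and 411 genes (3.12%) had an unadjusted p under 0.05, of which 105 (0.797%) were higher and 306 (2.32%) lower. The fits with and without rat 2 shared 267 genes under 0.05, which are 32.2% of the genes from 4 rats and 65.0% of those from 3. A count over 4 rats moving alike gave 573 genes higher (4.35%) and 666 lower (5.05%), and over rats 1, 3 and 4 it gave 1096 higher (8.31%) and 1149 lower (8.72%). In 51 genes (0.387%) the 4 iTBS arrays lay above all 4 sham arrays, and in 43 genes (0.326%) below. No gene named here is therefore called as changed, and the values show which genes stood at the ends of the ranking and how the rats compared.

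Ranked by p, the first 10 genes lower after iTBS in 4 of 4 rats were Trim16, Fosl1, Birc3, Ugt2a1, Ctrc, Csrnp1, Tnfrsf12a, Prdm1, Maff and Capns2. They include transcription factors induced by stimulation or injury (Fosl1, Maff, Csrnp1, Prdm1), an inhibitor of cell death and regulator of NF-kB signalling (Birc3) and a receptor of the tumor necrosis factor family that is induced in injured tissue (Tnfrsf12a). Their fitted changes ran from -1.61 to -0.54, and all 10 were chosen for their direction and p, so these are descriptions. Leaving out rat 2, the 10 had unadjusted p-values under 0.05 in limma on the z-score scale, from 0.00102 for Trim16 to 0.0256 for Capns2. With the 75th percentile and without rat 2, the unadjusted limma p was 0.116 for Ctrc and 0.0796 for Tnfrsf12a. With quantiles and without rat 2, it was 0.0915 for Csrnp1, 0.094 for Prdm1 and 0.0544 for Birc3. With scaling to the 75th percentile or to quantiles, 9 of the 10 were lower in 4 of 4 rats and Ugt2a1 in 3 of 4.

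Fosl1, which encodes the AP-1 subunit Fra-1, had sham levels of -0.46, 0.11, 0.85 and 0.61 in rats 1 to 4 and iTBS levels of -2.14, -2.51, -0.19 and -0.48. Rats 1 and 2 had the lowest iTBS levels, the order of the rats was kept in rats 1, 3 and 4, and the groups overlapped because the sham slices of rat 1 lay below the iTBS slices of rat 3. The mean level was 0.28 ± 0.58 (SD, n = 4) in sham and -1.33 ± 1.16 (SD, n = 4) in iTBS. The fitted change was -1.61 (SE 0.38; limma, unadjusted p = 0.00041, adjusted p = 0.832), and without rat 2 it was -1.27 (SE 0.44; unadjusted p = 0.009, adjusted p = 1).

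Maff, a small Maf protein that binds DNA as a partner of other basic leucine zipper factors, was at 1.64, 2.36, 2.07 and 1.92 in sham and at 1.00, 0.30, 1.39 and 1.09 in iTBS. Every iTBS level lay below every sham level. The mean was 2.00 ± 0.30 (SD, n = 4) in sham and 0.95 ± 0.46 (SD, n = 4) in iTBS. The fitted change of -1.05 (SE 0.28; limma, adjusted p = 0.832) became -0.71 (SE 0.29; adjusted p = 1) without rat 2, whose change of -2.07 was the greatest in size.

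Tnfrsf12a, the receptor of the cytokine TWEAK, was at 0.94, 1.08, 1.36 and 1.21 in sham and at 0.53, 0.31, 0.81 and 0.80 in iTBS. Its groups did not overlap, and the changes of the rats, from -0.78 to -0.41, were the closest together of these 10 genes. The fitted change was -0.54 (SE 0.14) with all rats and -0.46 (SE 0.16) without rat 2. Prdm1, a transcriptional repressor, also had groups that did not overlap, with -2.08, -1.59, -1.76 and -1.51 in sham against -2.81, -3.69, -2.26 and -3.04 in iTBS. Birc3 was at -0.40, 2.02, 0.64 and 0.27 in sham and at -1.06, -0.79, -0.15 and -0.57 in iTBS, so the highest level was again that of the sham slices of rat 2. Its fitted change was -1.27 (SE 0.31), and -0.76 (SE 0.27) without rat 2.

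**Figure D2:**
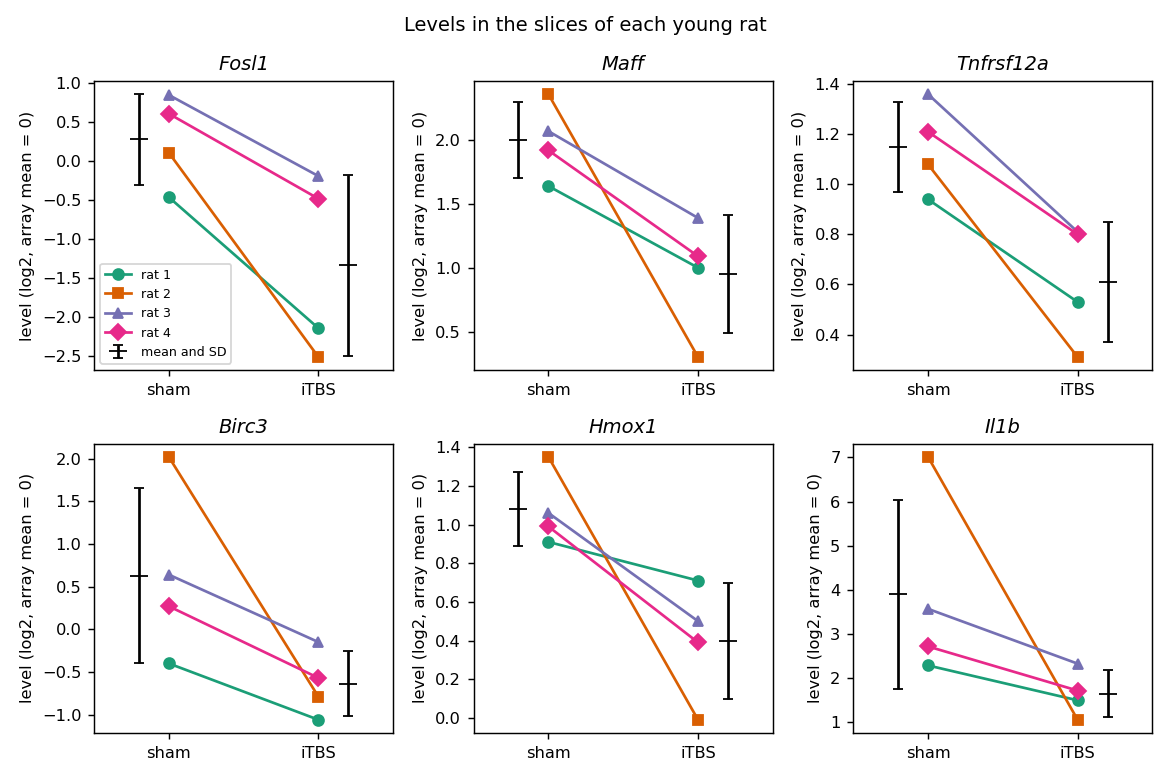
Levels (log2, array mean = 0) of 6 genes in the sham and iTBS slices of each young rat, joined by a line, with the mean and SD of the 4 arrays of each treatment beside them. All 24 lines slope down. The sham slices of rat 2 stand apart from the other rats for Il1b at 7.01 and Birc3 at 2.02.

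Csrnp1, a nuclear protein of the cysteine-serine-rich family, was at 2.55, 3.35, 3.56 and 3.25 in sham and at 2.25, 1.91, 2.89 and 2.92 in iTBS. Its fitted change was -0.69 (SE 0.18), and -0.43 (SE 0.18) without rat 2. Trim16, of the tripartite motif family, had the smallest p of the named genes (fitted change -0.95, SE 0.18; limma, unadjusted p = 3.5e-05, adjusted p = 0.57). Its sham levels of -3.86, -0.29, 0.37 and 0.15 and iTBS levels of -5.04, -1.69, -0.16 and -0.56 put rat 1 far below the other rats under both treatments, and its other tested probe had a change of -0.43. Capns2, a small subunit of calpain, had changes of -0.72, -2.10, -0.04 and -0.99, and Ctrc, a chymotrypsin, of -0.33, -1.36, -0.55 and -0.40. Ugt2a1, a glucuronosyltransferase, had changes of -0.04, -1.27, -2.15 and -0.73 and was the dimmest of the 10, with levels from -4.76 to -2.61. It was well above background on 4 of 4 sham and 2 of 4 iTBS arrays.

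**Figure D3:**
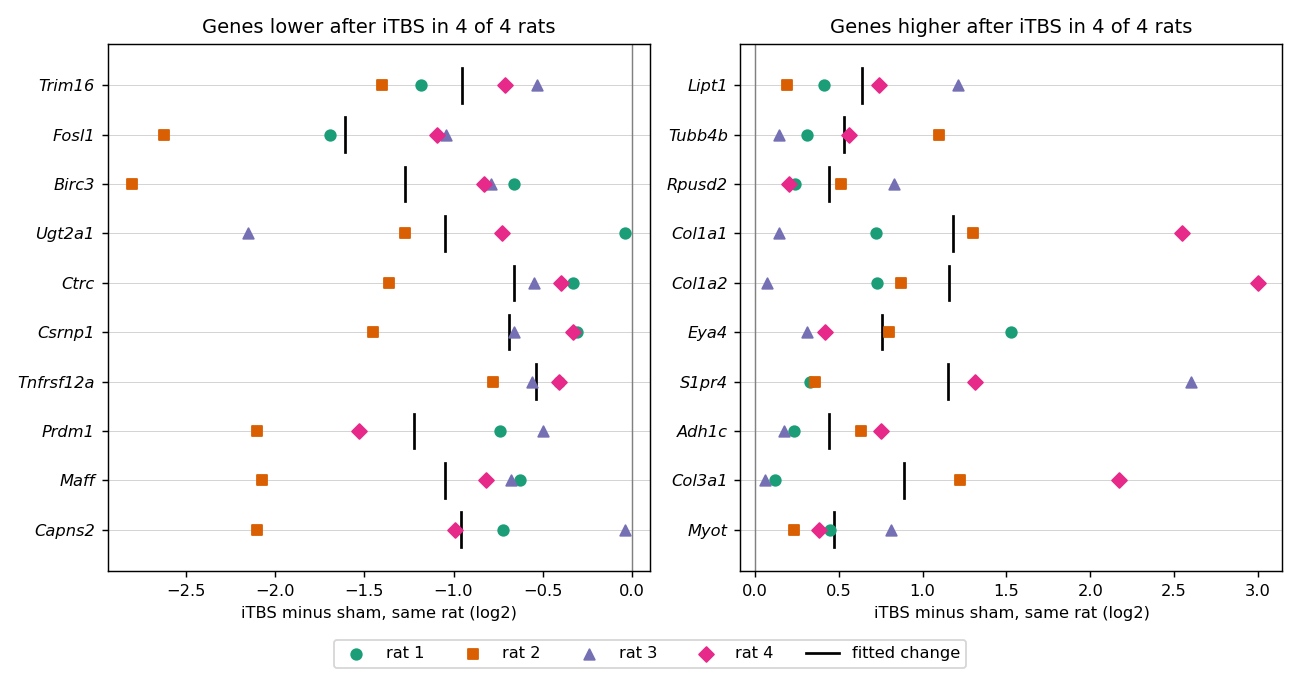
Change of each rat (iTBS minus sham, log2) for the first 10 genes by p that were lower in 4 of 4 rats and the first 10 that were higher in 4 of 4, in order of p, with the fitted change as a black line. The genes were chosen by these values. Rat 2 has the greatest change in size for 9 of the 10 lower genes, and rat 4 for the collagen genes.

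The AU and AI slices come from other rats and share no array with the young ones. In AU rat 4 and in AI rats 1 and 2 the sham and iTBS arrays lay on different slides. In those rats the slide does not drop out of the paired change and cannot be told apart from the treatment. In AU slices 8 of the 10 genes were lower after iTBS and 4 had an unadjusted p under 0.05 in limma, where 38.8% of all genes were lower and 1.45% were lower with a p under 0.05. In AI slices 8 of the 10 were lower and 6 had an unadjusted p under 0.05, where 52.0% of all genes were lower and 1.77% lower with a p under 0.05. The median change of the 10 genes was -0.36 in AU, against 0.05 for all genes, and -0.55 in AI, against -0.01. Fosl1 was lower in 3 of 4 AU rats (fitted change -1.30, SE 0.38; unadjusted p = 0.00274, adjusted p = 0.999) and in 4 of 4 AI rats (-1.23, SE 0.38; unadjusted p = 0.00416, adjusted p = 1). Tnfrsf12a was lower in 3 of 4 AU rats (-0.38, SE 0.14; adjusted p = 0.999) and in 4 of 4 AI rats (-0.57, SE 0.14; adjusted p = 0.919). Maff had fitted changes of -0.60 in AU (SE 0.28) and -0.64 in AI (SE 0.28), and Trim16 of -0.45 (SE 0.18) and -0.52 (SE 0.18), all short of the adjusted threshold. Birc3 was lower in 4 of 4 AI rats at -0.91 (SE 0.31) and in 3 of 4 AU rats at -0.58 (SE 0.31). Capns2 and Ugt2a1 were the 2 genes with values above 0 in both aged groups, at 0.06 and 0.03, and at 0.32 and 0.14. The difference of the iTBS change between young and aged slices passed the adjusted threshold for 0 of the 10 genes, with 3 of them at an unadjusted p under 0.05 against AU and 2 against AI, where 6.97% and 2.6% of all probes were. The 10 genes were chosen on the young change, which enters the difference.

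The sequence before the transcription start is shown for the 3 stimulus-induced transcription factors of this set that have an entry in the promoter table, since these members were lower together. The sequences are those of RefSeq on the rat assembly GRCr8, 250 bases up to the base before the start, 5′ to 3′ on the strand of the gene. Capitals mark a match to the AP-1 site TGANTCA or to the cyclic AMP response element TGACGTCA on either strand. Fosl1 lies at chr1:212183635-212183884, plus strand, Maff at chr7:112792537-112792786, plus strand and Prdm1 at chr20:49564089-49564338, minus strand.
Fosl1: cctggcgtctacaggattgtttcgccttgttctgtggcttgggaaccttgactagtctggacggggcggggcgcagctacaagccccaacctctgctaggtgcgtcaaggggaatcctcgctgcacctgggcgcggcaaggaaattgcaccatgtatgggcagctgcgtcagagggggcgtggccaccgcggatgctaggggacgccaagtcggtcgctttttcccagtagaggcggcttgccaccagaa
Maff: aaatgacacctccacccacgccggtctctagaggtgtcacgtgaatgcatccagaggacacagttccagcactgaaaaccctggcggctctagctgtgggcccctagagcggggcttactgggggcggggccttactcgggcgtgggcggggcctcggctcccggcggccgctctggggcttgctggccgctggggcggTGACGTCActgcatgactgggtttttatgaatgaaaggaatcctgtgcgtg
Prdm1: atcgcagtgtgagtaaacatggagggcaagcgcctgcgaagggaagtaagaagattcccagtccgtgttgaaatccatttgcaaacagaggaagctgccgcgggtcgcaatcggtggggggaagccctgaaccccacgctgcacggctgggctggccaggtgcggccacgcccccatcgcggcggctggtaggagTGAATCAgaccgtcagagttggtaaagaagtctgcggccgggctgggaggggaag
Maff held TGACGTCA from 51 to 44 bases before the start, and Prdm1 held the AP-1 site TGAATCA from 55 to 49 bases before it. Of the 10 lower genes, 7 had an entry, and Birc3, Csrnp1 and Ugt2a1 had none. The AP-1 letters were in 1 of the 7 windows and in 4.88% of the 10750 tested genes with an entry, the cyclic AMP response element in 1 of 7 and in 2.75%, and a loose NF-kB motif (GGG, any 4 bases, TCC) in 0 of 7 and in 19.7%. A match to the AP-1 letters cannot be a match to the cyclic AMP response element at the same place, and a match describes the letters of the window only.

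Cytokines and chemokines, the signals by which microglia and other cells recruit and activate immune cells, were the list with the most members lower in every rat. Of 24 listed genes 23 were tested, and 7 of them (Il1b, Il1rn, Il6, Tnfsf9, Ccl7, Cxcl1 and Cxcl12) were lower after iTBS in 4 of 4 rats while 0 were higher in 4 of 4, where 5.05% of all genes were lower and 4.35% higher. With scaling to the 75th percentile 6 were lower in 4 of 4, without Il6, and with quantiles 6, without Il1rn. At an unadjusted p under 0.05, 10 members were lower and 0 higher, where 4.36% of all genes were lower. Without rat 2, 3 members were lower at that p (Il6, Il1a and Il18) and 1 was higher (Tnf), where 2.32% and 0.797% of all genes were, and 8 of 23 were lower in 3 of 3 rats, where 8.72% of all genes were. The median change was -0.74 with all rats, against -0.03 for all genes, and -0.31 without rat 2, against -0.01. The medians of the rats were -0.05, -1.95, -0.47 and -0.30, and the sham array of rat 2 had the highest mean level of this list, at 2.99 against 0.95 to 1.65 on the other 7 arrays.

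Il1b, the secreted cytokine IL-1 beta, was at 2.29, 7.01, 3.57 and 2.72 in sham and at 1.5, 1.06, 2.33 and 1.72 in iTBS. Its level in the sham slices of rat 2 was the highest by far, and the changes of the other rats ran from -1.24 to -0.78. The fitted change was -2.24 (SE 0.64; limma, unadjusted p = 0.00224, adjusted p = 0.832), and -1.01 (SE 0.48; unadjusted p = 0.0512, adjusted p = 1) without rat 2. Both SEs rest on the spread over young and aged arrays together, not on that of the young changes. Il6, a cytokine of the acute phase response, behaved differently in that rat 2 did not stand apart. It was at -3.34, -3.0, -1.53 and -2.33 in sham and at -3.71, -3.55, -2.81 and -3.95 in iTBS, a dim signal, with a fitted change of -0.95 (SE 0.32; unadjusted p = 0.0066) and -1.09 without rat 2 (unadjusted p = 0.0097). With scaling to the 75th percentile Il6 was lower in 2 of 4 rats and higher in the other 2, with a fitted change of -0.60.

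Il1a, the other IL-1 agonist, had changes of 0.18, -3.61, -0.63 and -1.61, so rat 1 did not share the direction of the other 3 rats. Il18 was at 1.42 in the sham and -2.71 in the iTBS slices of rat 4, and its changes in rats 1 and 3 were 0.06 and -0.11. Tnfsf9, the ligand of the costimulatory receptor 4-1BB, had changes of -0.69, -2.82, -1.23 and -0.58. The neutrophil chemokine Cxcl1 had changes of -0.15, -1.84, -0.56 and -0.42, and the monocyte chemokine Ccl2 of 0.11, -1.86, -0.68 and -0.65. Tnf went the other way in 2 rats, with changes of 1.06, -0.68, -0.08 and 1.08. In AU slices 3 members of the list were lower after iTBS at an unadjusted p under 0.05 in limma (Il6 at -0.68, Cxcl1 at -0.58 and Cxcl11 at -0.84), and in AI slices 4 were (Il6 at -1.08, Ccl2 at -0.76, Ccl7 at -1.06 and Cxcl11 at -1.16), where 1.45% and 1.77% of all genes were. In the young, Cxcl11, a ligand of CXCR3, had changes of -0.40, -0.47, -0.25 and 0.43.

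**Figure D4:**
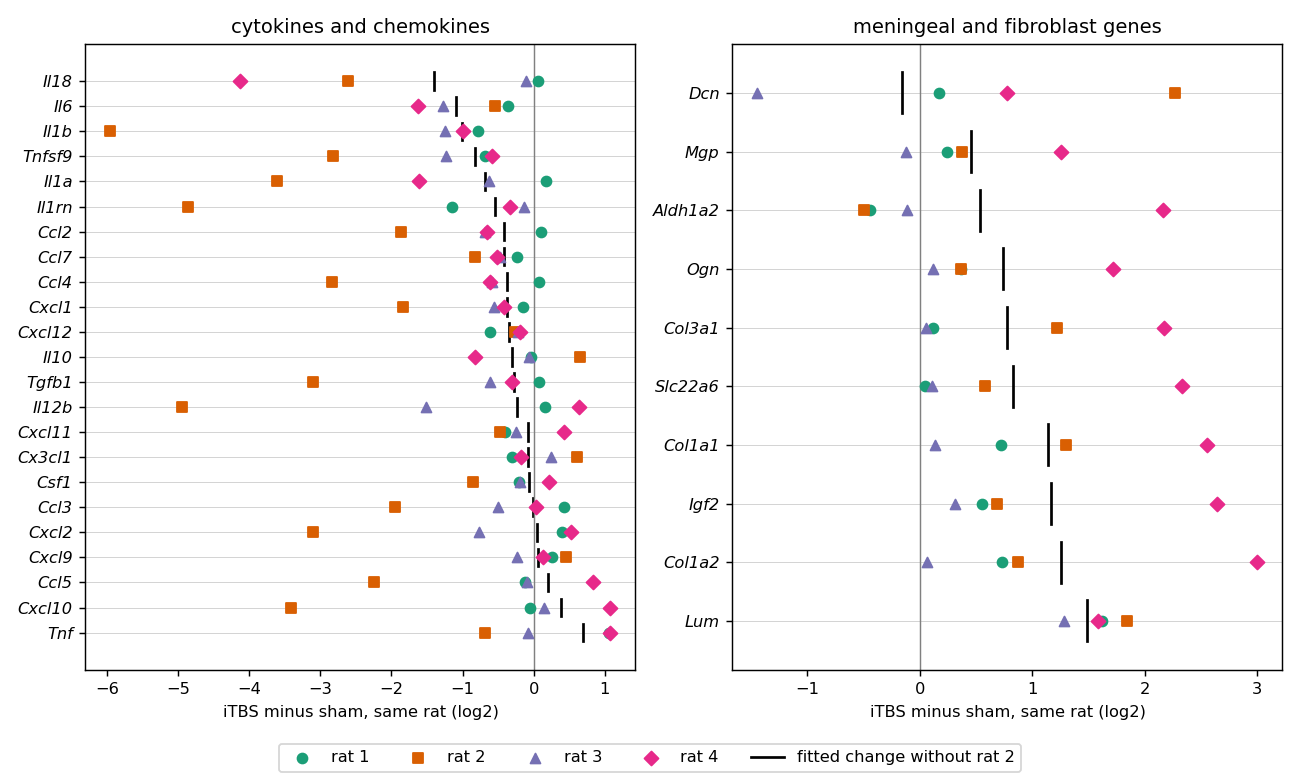
Change of each rat (iTBS minus sham, log2) for every tested member of the cytokine and chemokine list (23 genes) and of the meningeal and fibroblast list (10 genes), in order of the fitted change without rat 2, which is the black line. Rat 2 lies far to the left for Il1b at -5.95 and Il12b at -4.94, and 8 of the 10 meningeal genes have their highest change in rat 4.

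Complement and MHC class II genes had their greatest median changes in rat 2. Of 16 complement genes 6 were lower at an unadjusted p under 0.05 with all rats (4.36% of all genes) and 0 without rat 2 (2.32%), and the median went from -0.77 to 0.07. The median in the rats was 0.05, -3.05, -0.22 and 0.19. C3, the central component, was at 1.25, 7.82, 1.35 and 1.92 in sham and at 1.71, 0.93, 1.45 and 1.69 in iTBS, so that outside rat 2 the groups overlapped. C3ar1, the receptor of the fragment C3a, and C5ar1, that of C5a (lower in 3 of 4 rats with the 75th percentile), were the members lower in 4 of 4 rats, with changes of -0.41 and -0.10 in rat 1, -0.48 and -0.23 in rat 3 and -0.29 and -0.27 in rat 4. Of all genes 5.05% were lower in 4 of 4. Serping1, the C1 inhibitor, had changes of 0.44, 0.62 and 1.52 in rats 1, 3 and 4 and of -2.59 in rat 2, with a fitted change of 0.86 without rat 2 (limma, unadjusted p = 0.018). Of the 7 MHC class II genes tested, the median change was -6.17 in rat 2 and 0.15, -0.16 and 0.68 in the others.

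Homeostatic microglia genes had medians of 0.30, -0.94, -0.19 and 0.19. Of these genes 0 of 12 moved one way in 4 of 4 rats, where 4.35% of all genes were higher and 5.05% lower. Tyrobp, an adaptor of microglial receptors, had changes of 0.19, -3.34, -0.44 and 0.18, and P2ry12, the microglial receptor for ADP, of 0.41, -0.51, -0.16 and 0.15. Border macrophage and phagocyte genes had medians of 0.26, -0.44, -0.13 and 0.72. Cd68, a lysosomal protein of phagocytes, was at 5.2 in the sham slices of rat 2 and between -0.20 and 0.62 on the other 7 arrays.

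Of 29 immediate early genes, 3 were lower in 4 of 4 rats (Fosl1, Maff and Gadd45b) and 0 were higher in 4 of 4, where 5.05% and 4.35% of all genes were, and the median change of the list was -0.02, and -0.05 without rat 2. Gadd45b, a stress-induced gene, had changes of -0.19, -1.34, -0.39 and -0.37 (fitted change -0.57, SE 0.20; limma, unadjusted p = 0.00885), and without rat 2 the fitted change was -0.32 (SE 0.21; unadjusted p = 0.147). The classical activity genes did not follow Fosl1. Fos was at 3.87, 3.26, 4.56 and 4.16 in sham and at 4.50, 3.93, 3.77 and 3.89 in iTBS, higher in 2 rats and lower in the other 2, with a fitted change of 0.06 (SE 0.18). Egr1, a zinc finger factor, had changes of 0.55, -0.61, -0.33 and 0.33, and Npas4, which responds to calcium entry, of -0.05, 0.82, -1.21 and 0.26. Arc, a regulator of AMPA receptor traffic, was lower in 3 rats and higher by 0.65 in rat 3, where the change of Fos was -0.79. The medians of the list were 0.23 in rat 1 and -0.39 in rat 3. In AU slices 3 members were lower at an unadjusted p under 0.05 (Fosl1, Npas4 at -0.93 and Maff) and in AI slices 5 were (Fosl1, Fosb at -0.46, Klf4 at -0.60, Maff and Sik1 at -0.46), where 1.45% and 1.77% of all genes were.

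Among 16 tested genes of hypoxia, oxidative stress and injury, Hmox1, Adm and Timp1 were lower in 4 of 4 rats and Bnip3 and Nqo1 higher in 4 of 4 (Nqo1 in 3 of 4 with quantiles). Of all genes 5.05% were lower and 4.35% higher in 4 of 4. Without rat 2, 4 members were lower and 2 higher in 3 of 3 rats, where 8.72% and 8.31% of all genes were. Hmox1, the inducible heme oxygenase, was at 0.91, 1.35, 1.06 and 0.99 in sham and at 0.71, -0.01, 0.50 and 0.39 in iTBS, without overlap, with a fitted change of -0.68 (SE 0.19; limma, adjusted p = 0.832) and -0.46 (SE 0.20; adjusted p = 1) without rat 2. Adm, the vasodilator adrenomedullin, had changes from -0.98 to -0.35, and Timp1, an inhibitor of metalloproteinases, from -0.54 to -0.22. Timp1 was lower in both aged groups at an unadjusted p under 0.05 in limma, at -0.48 in AU and -0.63 in AI, and Adm in AI at -0.54. The median of this list was -0.01, and the hypoxia genes Vegfa, Pdk1 and Ldha had fitted changes of 0.09, 0.07 and 0.33. Of 12 heat shock genes tested, Hsp90aa1 and Hspd1 were higher in 4 of 4 rats under the z-score scaling, where 4.35% of all genes were. Their fitted changes were 0.43 and 0.23, and they were higher in 3 of 4 with the 75th percentile (Hsp90aa1 also with quantiles). Without rat 2 these changes were 0.23 and 0.09. Hspa1a had changes of 0.29, -0.07, -0.79 and -0.28.

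The genes higher after iTBS in 4 of 4 rats with the smallest p were Lipt1, Tubb4b, Rpusd2, Col1a1, Col1a2, Eya4, S1pr4, Adh1c, Col3a1 and Myot, with fitted changes from 0.44 to 1.18 (limma, adjusted p = 0.832 for each). In all 10 the unadjusted p was under 0.05 without rat 2 as well on the z-score scale, where 0.797% of all genes were higher at that p. The genes were chosen by direction and p on pairs that include these 3 rats, so this is a description. With the 75th percentile and without rat 2, the unadjusted limma p was 0.0935 for Tubb4b and 0.0598 for Adh1c. With quantiles it was 0.479 for Tubb4b, 0.135 for Adh1c and 0.0621 for Myot. Col1a1, a chain of type I collagen, was at 0.27, -1.70, 0.29 and 0.50 in sham and at 0.99, -0.40, 0.43 and 3.05 in iTBS. The iTBS slices of rat 4 were the highest, at 2.55 above their own sham, while rat 3 differed by 0.14, and the groups overlapped. Its partner chain Col1a2 was at 1.35, 0.32, 1.65 and 1.51 in sham and at 2.08, 1.19, 1.72 and 4.51 in iTBS, a change of 3.0 in rat 4 and 0.07 in rat 3. Col3a1, the chain of type III collagen, had changes of 0.12, 1.22, 0.06 and 2.17.

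The collagens belong to the list of 10 tested meningeal and fibroblast genes, cells of the membranes that cover the hippocampus. Of these 7 were higher in 4 of 4 rats (Igf2, Lum, Col1a1, Col1a2, Col3a1, Slc22a6 and Ogn), where 4.35% of all genes were, and the number was 7 with the other 2 scalings as well. At an unadjusted p under 0.05, 8 were higher with all rats and 7 without rat 2, where 1.93% and 0.797% of all genes were. The median change was 0.83 and its size differed between rats: 0.31, 0.78, 0.09 and 2.17. Igf2, a growth factor made by meninges and choroid plexus, had changes of 0.55, 0.69, 0.31 and 2.64, and Lum, the proteoglycan lumican, of 1.62, 1.84, 1.28 and 1.58 from low levels of -4.00 to -3.01 in sham. The mean level of the list was 2.31 in the iTBS slices of rat 4 and -0.80 to 0.78 on the other 7 arrays, and -0.97 to 0.48 on the 24 aged arrays. In AU and AI slices 0 members were higher or lower at an unadjusted p under 0.05 in limma, with median changes of -0.13 and -0.16. The part of membranes left on the slabs in these values was not tested.

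Other lists of cells at the edge of the tissue had high values in rat 4 too. The median change there was 0.57 for 6 tested choroid plexus genes, which were -0.16 to 0.05 in the other rats, and 0.72 for border macrophage genes. Ttr, the defining secretory product of choroid plexus, lay between -2.12 and -0.07 on the 8 arrays. Of 11 listed choroid plexus genes 6 were tested, and Kl, Clic6 and Tmem72 were among those that did not pass the filter. In rat 4, 5 of the 6 were higher and 1 lower, and the mean level of the list was low, from -1.59 to -0.83 on the 8 arrays. Ptgds, the prostaglandin D synthase that meninges and oligodendrocytes express, was among the 5 genes with the smallest p without rat 2. It was at 6.62, 5.93 and 6.09 in the sham and at 7.11, 6.64 and 8.09 in the iTBS slices of rats 1, 3 and 4, and its fitted change was 1.06 (SE 0.27; limma, unadjusted p = 0.000807, adjusted p = 1). In rat 2 its change was -0.71. Slc6a13, the GABA and taurine transporter of meninges and choroid plexus, had changes of 0.43, 0.09, 0.11 and 2.10.

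The higher genes outside the collagens were of several kinds. Tubb4b, a beta tubulin, was at 8.25, 8.08, 8.36 and 8.23 in sham and at 8.56, 9.19, 8.51 and 8.79 in iTBS, without overlap, with a fitted change of 0.53 (SE 0.14) and 0.34 (SE 0.15) without rat 2. Lipt1, a lipoyltransferase of mitochondria, had changes of 0.41, 0.19, 1.21 and 0.74, again without overlap. Rpusd2, a pseudouridine synthase, was at -0.98 to -0.89 in sham and -0.76 to -0.06 in iTBS. S1pr4, a receptor of sphingosine 1-phosphate, Eya4, a transcriptional coactivator, Adh1c, an alcohol dehydrogenase, and Myot, a muscle actin-binding protein, were dim, with sham means from -3.95 to -2.34. S1pr4 was well above background on 2 of 4 sham and 4 of 4 iTBS arrays, so its change starts from sham values near background. Eya4, Adh1c and Myot were well above background on all 8 arrays. With quantile normalization, Eya4 and S1pr4 were higher in 3 of 4 rats, and their fitted changes were 0.37 each. Other probes disagreed for Eya4 (from -0.25 to 0.76 over its 3 tested probes) and Rpusd2 (-0.09 for the other probe). In AU slices 3 of these 10 genes were above 0 and 7 below, where 61.2% of all genes were above. In AI slices it was 5 and 5, where 48.0% were above. At an unadjusted p under 0.05, 0 of the 10 were higher in limma in either group, where 2.93% of all genes in AU and 0.47% in AI were. Their difference from the young had an unadjusted p under 0.05 for 8 genes against AU and 7 against AI, where 6.97% and 2.6% of all probes had one, and 0 passed the adjusted threshold. The genes were chosen on the young changes, which enter these differences, and on p-values whose SE is shared with the aged groups.

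Without rat 2 the genes lower in the other 3 rats with the smallest p were Tdh, Alox12b, Trim16, Plch1 and Fbxo8, and those higher were Fam222a, Ptgds, Lipt1, S1pr4 and Col1a2. Tdh, a threonine dehydrogenase, had an adjusted p of 0.916 in limma, with levels of -2.10, -2.52 and -2.30 in sham and -2.67, -3.36 and -3.47 in iTBS. With all rats, it was well above background on 4 of 4 sham and 2 of 4 iTBS arrays. Its fitted change without rat 2 was -0.86, and -0.70 with the 75th percentile and -0.20 with quantiles. Alox12b, a lipoxygenase, was at -1.17, -1.81 and -1.05 in sham and at -2.11, -4.10 and -1.56 in iTBS, and in rat 2 it differed by 0.06. Fbxo8, an F-box protein, had changes of -0.45, -2.30 and -0.78 in rats 1, 3 and 4. Plch1, a phospholipase C, was lower in the same 3 rats at -0.70 (SE 0.19) and higher by 0.52 in rat 2. Fam222a had a fitted change of 0.81 (SE 0.18), but a change of -0.18 for its other probe with all rats.

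The 16 AMPA, NMDA and kainate receptor subunits had a median change of 0.07, and 1 of them (Grin3b) was higher in 4 of 4 rats, and in 3 of 4 with quantiles. Of all genes 4.35% were higher in 4 of 4. Gria2, which makes AMPA receptors impermeable to calcium, was at 0.33, -0.55, 0.59 and 0.87 in sham and at -0.32, -0.70, 0.77 and -5.48 in iTBS, so the iTBS array of rat 4 stood far from the other 7 and the fitted change was -1.74 (SE 0.68), and -2.27 (SE 0.78) without rat 2. Of 15 GABA receptor subunits tested, 3 were lower at an unadjusted p under 0.05 with all rats (Gabra4 and Gabrd among them) and 0 without rat 2, where 4.36% and 2.32% of all genes were. Gabrd, the delta subunit of extrasynaptic receptors, had changes of -1.10, -1.01, 0.58 and -1.28, and Gabra4, a partner of it, of -0.86, -1.17, 0.40 and -0.74, lower in 3 rats and higher in rat 3. Among 15 cholinergic genes, 5 were higher in 4 of 4 rats by small amounts (Bche, Chrna5, Chrnb2, Chrnb4 and Chrm2, with fitted changes of 0.18 to 0.66), where 4.35% of all genes were. With quantiles Chrm2 was higher in 3 of 4. Slc5a7, the choline transporter, had changes of -2.68, -2.14, 0.17 and -2.11. Of 21 synaptic vesicle and postsynaptic genes, 4 were higher in 4 of 4 rats (4.35% of all genes), among them Vamp2, Slc17a6 and Shank2 with fitted changes of 0.42, 0.76 and 0.18. Vamp2 was higher in 3 of 4 with the other 2 scalings. Among neurotrophin genes, Bdnf, which supports synaptic plasticity, had changes of -1.26, -0.16, 0.51 and -0.54, and Ntf3, a related growth factor, of -1.56, -0.10, 0.59 and -1.52.

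In Gabrd, Gabra4, Slc5a7, Bdnf and Ntf3 rat 3 was higher after iTBS and the other rats lower, and some markers of hippocampal fields had the same directions. C1ql2, a marker of dentate granule cells and their mossy fibres, was at 4.54, 4.20, 3.25 and 4.15 in sham and at 1.99, 3.33, 3.88 and 1.89 in iTBS. Its changes were -2.55, -0.87, 0.62 and -2.26, higher in rat 3 alone, with a fitted change of -1.27 (SE 0.48; limma, unadjusted p = 0.0147, adjusted p = 0.832) and -1.40 (SE 0.57) without rat 2. Neurod2, a factor of pyramidal and granule neurons, had changes of -0.77, -0.64, 0.69 and -0.83. Calb1, calbindin, which granule cells and CA1 pyramidal cells contain, and Wfs1, a marker of CA1, were lower in 4 of 4 rats under the z-score scaling, from -0.68 to -0.13 and from -2.02 to -0.14, and Amigo2, a marker of CA2 and CA3, was higher by 0.10 to 0.76. With the other 2 scalings Calb1 was lower in 3 of 4. On the z-score scale 5.05% of all genes were lower and 4.35% higher in 4 of 4. The medians of the 9 field markers tested were -0.48, -0.61, 0.10 and -0.48, and in rat 3 they held 5 markers above 0 and 4 below. Their median change was -0.26 with all rats and -0.05 without rat 2. The part of the hippocampal fields in the results was not tested.

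Glial and vascular lists differed between rats in both directions. Oligodendrocyte and myelin genes had medians of 0.48, -0.79, 0.68 and -0.06 over 22 genes, and Mobp, a myelin protein, had changes of 0.64, -1.60, 1.12 and -0.26. The median change of the list was 0.06 with all rats, against -0.03 for all genes, and 0.35 without rat 2, against -0.01. Within this list Sox10, the factor of the oligodendrocyte lineage, was at -0.45 in the iTBS slices of rat 3, where the other 7 arrays lay between 3.29 and 4.70, while 20 of the 22 members were higher in that rat. Olig2 was the member higher in 4 of 4 rats, by 0.09 to 0.52, where 4.35% of all genes were higher in 4 of 4. Astrocyte genes had medians from -0.13 to 0.40, and Gfap, the intermediate filament of astrocytes, was at 4.63 in the sham slices of rat 2 and 2.12 in its iTBS slices. Endothelial and pericyte genes had medians from -0.12 to 0.42. Among the 14 tested, Kdr, Cdh5 and Pdgfrb were higher in 4 of 4 rats, where 4.35% of all genes were. Their fitted changes were 0.09 to 0.26. Cdh5 was higher in 3 of 4 with the other 2 scalings and Kdr in 3 of 4 with quantiles. Cldn5, the claudin of brain endothelium, was higher in 3 of 4 at 0.37 (SE 0.16; limma, unadjusted p = 0.0288), and at 0.37 (SE 0.19) without rat 2.

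Genes of the respiratory chain had their highest medians in rat 2. Of 32 NADH dehydrogenase subunits 7 were higher at an unadjusted p under 0.05 with all rats (1.93% of all genes) and 0 without rat 2 (0.797%), and their median was 0.22, or 0.25 above that of all genes. With scaling to the 75th percentile the difference from all genes was 0.03. The medians of the rats were 0.06, 0.61, -0.03 and 0.25. ATP synthase subunits (0.13, 0.68, -0.06 and 0.31) and cytochrome c oxidase and reductase subunits (0.17, 0.66, -0.05 and 0.26) had the same order of rats, and ribosomal proteins had medians of 0.36, 0.26, -0.17 and 0.18. The SD of log2 signal over an array was 3.835 for sham and 3.418 for iTBS in rat 2, and its part in these values was not tested.

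**Figure D5:**
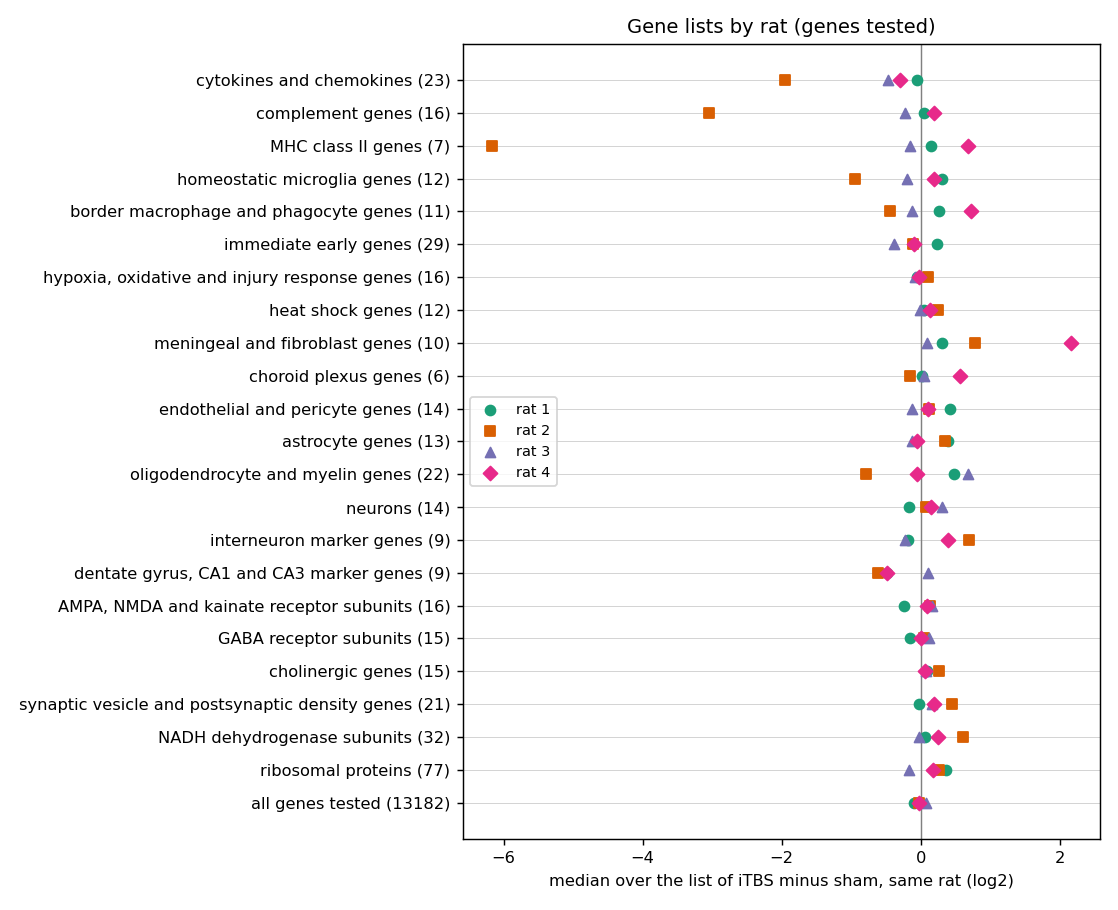
Median change (iTBS minus sham, log2) of 22 gene lists and of all genes tested in each young rat, with the number of genes tested in brackets. Rat 2 lies at -6.17 for MHC class II and -3.05 for complement genes, and rat 4 at 2.17 for meningeal and fibroblast genes. The medians of all genes lie between -0.10 and 0.07.

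The study's table of genes for young iTBS slices was chosen by the authors on these arrays, so its values are a description. Of its 30 genes 26 were tested, and Cxcl13, Cldn16, Cldn4 and Gabra6 did not pass the filter. Of the 26 genes, 11 were lower and 2 higher at an unadjusted p under 0.05 with all rats (4.36% and 1.93% of all genes), and 2 lower and 3 higher without rat 2 (2.32% and 0.797%). The median change was -1.27 with all rats and 0.10 without rat 2, and the medians of the rats were 0.17, -3.60, -0.27 and 0.25. Without rat 2, Slc5a7, Il1a, Slc6a13, Igf2 and Folr1 had an unadjusted p under 0.05. Folr1, a folate receptor of choroid plexus, had changes of 2.80, 1.11 and 0.88 in rats 1, 3 and 4 and of -1.84 in rat 2. For Cadm4 the iTBS array of rat 2 had no value, and its fit used the other arrays.

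The criteria of the methods, which combine an analysis of variance over the groups and a comparison of z-scores with limits on the false discovery rate (0.3), the z-ratio (1.5) and the mean z-score (0), were applied again here to the z-scores and selected 21 probes, of which 3 were higher and 18 lower after iTBS. Of the 18 named genes among them, 16 were lower, 14 of these in 4 of 4 rats, and 14 had their greatest decrease in rat 2. They hold Maff, Capns2 and Hmox1, the chemokine Cxcl1, the NF-kB regulators Bcl3 and Irak2 and the CCAAT enhancer binding protein Cebpd. As applied here, the criteria selected far fewer genes than the paper reports for young iTBS slices. Tnfsf9 was the only gene of the study's table among the 18, and Cd74, C4a and Il1b were not selected. The authors' selection was therefore not reproduced, and the counts are those of the criteria as read here. Without rat 2 the same criteria selected 2 probes, Cartpt and Serping1, and shared 0 with the 21. Without rats 1, 3 and 4 in turn they selected 27, 74 and 12 probes, of which 12, 13 and 8 were among the 21.

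The iTBS change of young slices was also set against that of AU and AI slices probe by probe. The difference passed an adjusted p of 0.05 in limma for 0 of 32562 probes against AU (0.0%), with a smallest adjusted p of 0.644, and for 0 against AI (0.0%), with 1. An unadjusted p under 0.05 was found for 2269 probes (6.97%) against AU and 845 (2.6%) against AI. C1ql2 was among them against AU, with an unadjusted p of 0.00626.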

How the data were processed

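RNA of each dish was hybridized to 1-colour Agilent rat arrays of 62976 features, and the authors deposited the scanner output (processed signal intensity, with gMedianSignal but no gMeanSignal) and a table of z-scores. The authors' z-score is log2 of the processed intensity, centred and divided by the SD over all features of an array, and the recomputed scores differ from the deposited score by at most 0.005. Here it was multiplied by 4.158, the mean SD of the 36 primary arrays, to give units close to log2. The 4 repeat arrays were left out. Control spots were removed, spots of a probe averaged, and a probe was kept where some group among the 9 had it well above background on its 4 arrays. This left 32562 of 45598 probes, and 13182 of 16575 named genes, each by the probe of highest mean signal. Symbols were assigned by matching the accession of each probe on the array to a RefSeq gene reference, and 21102 probes received one.

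limma 3.58.1 (R 4.3.3) fitted treatment by group with the rat as a fixed block on all 36 arrays, with Benjamini-Hochberg adjustment at 0.05. The pairing comes from the labels, which give 1 number to the slices of 1 rat, and deviations of sham and iTBS arrays of a rat correlated at 0.237 to 0.429. Each group had 4 rats, and precision is limited by the number of arrays. On simulated data for this comparison (32136 probes, 200 changed), 88.5% were recovered with 4 false calls, 62% at a log2 change of 1 and 94% at 2. The simulated noise was normal and independent between probes and arrays, with no array standing apart as the sham array of rat 2 did. These shares therefore need not hold for the real arrays. Python 3.11.15, pandas 2.3.3, SciPy 1.17.1 and matplotlib 3.10.9 made summaries and figures.

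Named genes were the 10 higher and 10 lower in 4 of 4 rats with the smallest p, 5 and 5 without rat 2, the study's table, the ends of each gene list, the genes at the extremes of the sham array of rat 2, and markers. Other list members were named after their values were seen. The comparison, lists and tests were chosen with earlier results of these data known. Alternatives were scaling to the 75th percentile, normexp (offset 50, on gMedianSignal) with quantile normalization, the authors' table, other filters, other probe summaries, other blocks, array weights, the criteria of the methods and leaving out each rat. Leaving out only the sham array of rat 2 was added after seeing the data. The values of some list members are not reported here.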

Additional observations from a re-analysis of the deposited data

Results flagged for a closer look

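Among 106 genes examined, 1 rat stood apart from the other 3 in 26, by a gap that took up most of the range of the 4 changes (Dixon's criterion), and rat 2 was that rat in 20 of them. Chance flags about 5% of groups of this size, but the genes were chosen in part for their values on the sham array of rat 2 or at the ends of lists, so the shares cannot be compared. In rat 2 the complement genes had changes of -3.51 (C1qb), -4.51 (C1qc), -5.68 (C2), -6.89 (C3), -7.12 (C4a), -7.26 (C4b), -3.60 (C3ar1) and -2.36 (C5ar1). The antigen presentation genes there were at -10.36 (Cd74), -12.02 (RT1-Da), -8.45 (RT1-Bb), -7.45 (RT1-Db2) and -1.61 (RT1-DMa). Leukocyte and cytokine genes were at -5.40 (Cd68), -3.34 (Ptprc) and -5.95 (Il1b). Birc3 at -2.80, Maff at -2.07, the ribosomal protein gene Rps27l at -1.03 and the chaperone Hspa5 at -0.58 also stood apart in rat 2, and Birc3, Maff, Il1b, C3ar1 and C5ar1 were lower in every other rat as well.

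In rat 4, Gria2 was at -6.35, Igf2 at 2.64, Slc6a13 at 2.10 and the vesicular GABA transporter Slc32a1 at 0.47. In rat 3, Neurod2 was at 0.69 and the GABA receptor subunit Gabra3 at -0.38. Of 33 list medians, 5 had a rat apart. These were MHC class II genes in rat 2 at -6.17, complement genes in rat 2 at -3.05, the study's table in rat 2 at -3.60, cholinergic genes in rat 2 at 0.26 and AMPA, NMDA and kainate receptor subunits in rat 1 at -0.24.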

How the results depend on the processing

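The count of probes past the adjusted threshold was 0 under the alternatives run, except 1 probe with no gene symbol with array weights (whose estimation stopped before convergence; adjusted p = 0.00437 in limma) and 1 when rat 4 was left out beside rat 2 (range of leave-outs 0 to 1). The criteria of the methods, as applied here, gave 21 probes, and 27, 2, 74 and 12 without rats 1 to 4. Leaving out a rat thus gave 0 in the paired fit and 2 to 74 by these criteria. The number of probes at an unadjusted p under 0.05, 1922 with the rat as replicate block, was 719 with no replicate block, 1004 with the 8 arrays only, 4476 with array weights, 1081 without the sham array of rat 2, and from 1090 to 3832 when a rat was left out. The pairing block changed no other call.

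List medians less that of all genes moved for GABA receptor subunits (-0.083 with the 75th percentile, -0.004 to 0.111 when a rat was left out), cholinergic genes (0.039 with quantiles, -0.162 with probes well above background on all 36 arrays), border macrophage genes (-0.501 with that filter), lymphocyte genes (0.156 with the 75th percentile, -0.12 with no filter, -0.30 with the strict filter), neurogenesis genes (0.243) and ribosomal proteins (-0.104) with the 75th percentile, and heat shock genes (-0.081 with no filter).

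Directions reversed without the sham array of rat 2 for C1qb (0.10), C3 (0.00), C4a (0.31), C4b (0.16), Cd74 (0.20), Cldn23 (-0.12), Gfap (0.15), Plac8 (0.14), RT1-Bb (0.37), RT1-Da (0.07), RT1-Db2 (0.15) and Rps27l (0.02). With the 75th percentile they reversed for Cldn14 (0.07), Cox6b1 (0.16), S100a9 (0.09), Slc32a1 (0.18) and Slc4a5 (0.16), with quantiles for Cldn14 (0.01), Cox6b1 (0.14) and S100a9 (0.03), and with array weights for Slc32a1 (0.01). Leaving out a rat gave ranges of -1.18 to 0.09 for C1qb, -1.95 to 0.03 for C2, -2.34 to 0.11 for C3, -2.37 to 0.30 for C4a, -2.49 to 0.24 for C4b, -3.49 to 0.46 for Cd74, -0.44 to 0.09 for Cldn14, -0.07 to 0.99 for Cldn23, -0.11 to 0.03 for Cox6b1, -0.95 to 0.17 for Gfap, -2.43 to 0.25 for Plac8, -2.79 to 0.49 for RT1-Bb, -4.01 to 0.47 for RT1-Da, -2.63 to 0.18 for RT1-Db2, -0.07 to 0.90 for Ror2, -0.33 to 0.03 for Rps27l, -0.35 to 0.05 for S100a9 and -0.37 to 0.01 for Slc4a5. The cause was not tested.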
